A study of Mus musculus with 10 samples.

Results

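Killer cell lectin-like receptors are C-type lectin-like proteins of natural killer (NK) cells, killer T cells and some effector T cells. Their genes were examined in mouse regulatory T (Treg) cells, a suppressive class of CD4 T cell that depends on Foxp3. The 6 genes Klrd1, Klrc1, Klrc2, Klrk1, Klrb1c and Klrg1 are described, out of 22180 genes with a probe set of their own on the array. They were picked by name after the WT and LKB1-deficient arrays had been compared, so the difference between the groups is given for them as a description with no test. Each of the 6 was measured by 1 probe set with that gene as its only symbol. By their means over all 10 arrays, 3 of them (Klrd1, Klrc1 and Klrg1) lay outside the dimmest 40% of genes. For Klrd1 and Klrc1 these means include their higher LKB1-deficient arrays. The WT mean of Klrd1 was 4.29, near the 4.16 of Klrb1c, and Klrc1 was at 4.24 to 4.35 on WT arrays other than 4. Their WT levels therefore cannot be told from background either. The other 3 (Klrc2, Klrk1 and Klrb1c) lay inside it, where a level cannot be told from background, since no detection calls were used here.

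The samples were 5 of wild-type (WT) and 5 of LKB1-deficient Treg cells, with 1 array each. All were sorted, with no culture, from mixed bone marrow chimeras, which are mice rebuilt with marrow of more than 1 donor type. The titles of the second group name a deletion of Stk11, the gene of the kinase LKB1. The sources used here give no Cre line, strain, deleted exons or age, and do not say whether replicates were separate animals. P-values therefore measure sample-to-sample spread, which may be technical.

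CD94, the product of Klrd1, pairs with an NKG2 protein and binds the non-classical MHC molecule Qa-1. With NKG2A, from Klrc1, the pair is inhibitory through tyrosine-based motifs in the NKG2A tail, and with NKG2C, from Klrc2, it is activating through the adaptor DAP12. NKG2D, from Klrk1, is an activating receptor for stress-induced ligands such as RAE-1, H60 and MULT1, and signals through DAP10 and, in mice, DAP12. NK1.1, from Klrb1c, marks NK cells and NKT cells of some mouse strains. KLRG1 is an inhibitory receptor for cadherins, found on terminally differentiated killer cells and on a subset of effector Treg cells.

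Promoter sequences were at hand for 4 of the 6 genes (Klrc1, Klrc2, Klrk1 and Klrb1c), and for Klrc3, a close relative of Klrc2. They are shown because 3 of the 4 genes are near neighbours that differed in how they varied across the arrays. Each run is the 250 bases before the transcription start, from RefSeq (GRCm38.p6), 5′ to 3′ on the gene's strand (minus for all 5), and capitals mark the RUNX core TGTGGT on either strand (ACCACA on the other). RUNX factors are transcription factors of T and NK cells. For Klrc2, which has 2 listed starts, the window most like that of Klrc3 is shown. The windows are chr6:129678974-129679223 for Klrc1, chr6:129623865-129624114 for Klrk1, chr6:129660557-129660806 for Klrc2, chr6:129643289-129643538 for Klrc3 and chr6:128788642-128788891 for Klrb1c.
Klrc1: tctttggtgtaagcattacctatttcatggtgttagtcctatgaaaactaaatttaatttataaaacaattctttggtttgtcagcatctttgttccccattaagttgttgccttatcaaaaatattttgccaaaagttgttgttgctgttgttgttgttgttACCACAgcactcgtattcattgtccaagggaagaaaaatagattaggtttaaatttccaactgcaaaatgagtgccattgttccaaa
Klrk1: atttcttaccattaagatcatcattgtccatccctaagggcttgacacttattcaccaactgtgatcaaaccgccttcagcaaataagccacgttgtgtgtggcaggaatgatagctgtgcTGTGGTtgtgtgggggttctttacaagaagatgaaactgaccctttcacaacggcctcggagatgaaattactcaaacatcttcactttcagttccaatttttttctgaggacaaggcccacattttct
Klrc2: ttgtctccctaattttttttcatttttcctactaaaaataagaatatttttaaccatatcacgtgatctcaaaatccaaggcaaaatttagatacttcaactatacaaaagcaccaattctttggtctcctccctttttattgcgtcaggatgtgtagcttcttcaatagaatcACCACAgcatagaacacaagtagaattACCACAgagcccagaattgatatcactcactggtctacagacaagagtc
Klrc3: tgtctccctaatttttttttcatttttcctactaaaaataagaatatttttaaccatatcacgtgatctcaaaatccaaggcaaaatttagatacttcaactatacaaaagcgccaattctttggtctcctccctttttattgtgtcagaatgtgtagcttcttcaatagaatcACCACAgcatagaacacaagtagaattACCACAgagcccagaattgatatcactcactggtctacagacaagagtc
Klrb1c: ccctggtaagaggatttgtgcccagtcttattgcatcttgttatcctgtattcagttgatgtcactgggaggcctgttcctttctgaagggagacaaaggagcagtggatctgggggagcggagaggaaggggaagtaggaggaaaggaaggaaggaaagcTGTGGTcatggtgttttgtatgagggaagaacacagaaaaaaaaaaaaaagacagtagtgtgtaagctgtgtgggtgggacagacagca
The RUNX core was present in all 5 windows, once in Klrc1, Klrk1 and Klrb1c and 2 times in Klrc2 and Klrc3, against 14% of 32851 promoter windows of the same length. No window held the AP-1 motif TGANTCA (6.7% of all windows) or the T-box half-site AGGTGT (11.8%), both searched on both strands. The Klrc2 and Klrc3 windows were identical at 246 of 250 aligned bases (98.4%), whereas Klrc2 and Klrc1 were identical at 150 of 285 aligned positions, gaps included (52.6%). The Klrc2 window was picked for its likeness to Klrc3, and its other listed start is not shown. As near copies, these 2 windows are not independent in the RUNX count. A match is a description of letters only. The genes of Klrc1, Klrc2 and Klrc3 are themselves close relatives, so a probe set of 1 may take up signal of another.

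The LKB1-deficient arrays were less alike than the WT arrays (r over genes 0.969 to 0.989 against 0.991 to 0.993), and arrays 1, 4 and 5 of that group stood apart in markers of other cell types. The mean log2 signal of 15 measured B and plasma cell markers (of 18 listed) was 6.68, 6.33 and 6.47 on these 3 arrays, against 5.38 to 5.68 on WT arrays, with arrays 2 and 3 of the same group at 5.48 and 5.57. For 14 of 18 NK and innate lymphoid markers it was 5.91, 5.93 and 5.98, against 5.41 to 5.58 in WT, with arrays 2 and 3 at 5.19 and 5.37. That list shares Tyrobp, Klre1, Nkg7, Eomes, Prf1, Gzma and Ncr1 with genes described further on. For 23 of 24 monocyte, macrophage and dendritic markers it reached 9.11 and 9.20 on arrays 4 and 5 and 7.19 on array 1, against at most 6.90 on WT arrays. On arrays 4 and 5, 7 and 8 of the 14 NK markers were above all WT arrays, where the shares over all genes were 21.96% and 20.39%. The largest rises among the NK markers were in Tyrobp (11.22 and 11.30, WT at most 8.98), also in the macrophage list, and Fcgr3 (7.54 and 7.91, WT at most 5.83). Nkg7 was below all WT arrays on both. LKB1-deficient array 1 also had the lowest Treg marker mean (12 genes), 8.98 against 10.08 to 10.18 on WT arrays and 9.87 to 10.22 on the other LKB1-deficient arrays, and the highest conventional CD4 T cell mean (8 of 10 genes), 9.54 against 8.45 to 8.57 in WT and 8.67 to 8.74 on the remaining arrays of its group. In bulk samples, fewer cells of a type and less RNA per cell cannot be told apart. Stk11 was at 6.61, 6.69, 6.75, 6.95 and 6.92 on WT arrays 1 to 5 and at 6.57, 6.01, 6.05, 6.71 and 6.78 on LKB1-deficient arrays 1 to 5, a difference of -0.36 (SE 0.16) that did not pass in limma (adjusted p = 0.335). LKB1-deficient arrays 4 and 5 lay within the WT range. Since the deleted part of Stk11 is not known here, its probe set cannot check the labels.

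**Figure D1:**
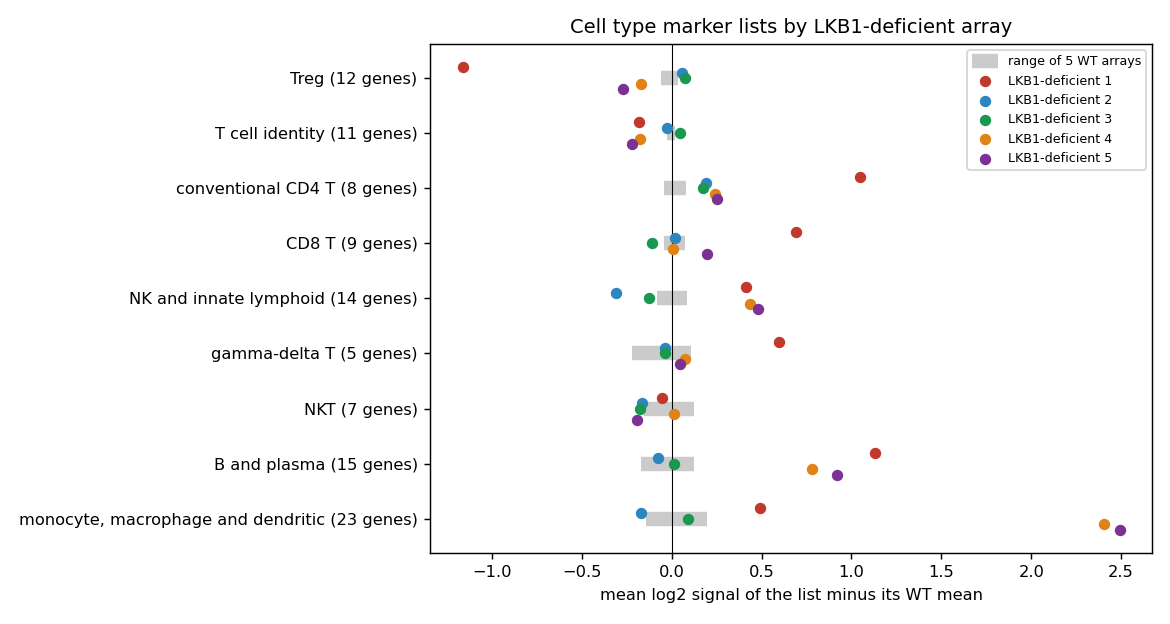
Mean log2 signal of each cell type marker list on the 5 LKB1-deficient arrays, minus the mean of the list on the WT arrays. Grey bars give the range of the 5 WT arrays. Arrays 1, 4 and 5 lie to the right of the WT range for the NK, B cell and macrophage lists, and array 1 far to the left for the Treg list.

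The CD94 gene Klrd1 was higher on every LKB1-deficient array than on any WT array. Its log2 signal was 4.49, 4.47, 4.53, 4.18 and 3.77 on WT arrays 1 to 5 and 6.42, 5.02, 5.64, 5.63 and 6.41 on LKB1-deficient arrays 1 to 5. The groups did not overlap: the lowest LKB1-deficient array, 2, was above the highest WT array, 3. The WT mean was 4.29 ± 0.32 (SD, n = 5) and the LKB1-deficient mean 5.82 ± 0.60 (SD, n = 5), a log2 difference of 1.53 (SE 0.25) or 2.89-fold. That fold rests on a dim WT level, which cannot be told from background. Over all genes 4.71% had groups that did not overlap and 0.996% were higher without overlap, and nothing is read from this for a gene picked on the same contrast. On LKB1-deficient arrays 2 and 3 Klrd1 was 0.73 and 1.35 above its WT mean. The NK marker mean was below all WT arrays on both, while 0 of 14 NK markers on array 2 and 4 of 14 on array 3 (Eomes, Prf1, Gzma and, only just, Fcgr3) were above all WT arrays. Over all genes the shares above all WT arrays were 20.98% on array 2 and 20.73% on array 3. For 9 CD8 T cell markers the mean was 7.07 and 6.95 on arrays 2 and 3, against 7.01 to 7.13 in WT. Of these, 2 on array 2 and 4 on array 3 were above all WT arrays, to be read against the same shares over all genes. Cd8a was among them, at 6.10 and 5.90 against at most 5.80 in WT. Cd8b1, at 7.83 and 7.86, lay within the WT range. Cd8a was called higher (limma adjusted p = 0.0423), but was named after its values were seen. Whether that call held with single arrays left out is not given here. Nkg7, on the same CD8 T list, was called lower (limma adjusted p = 0.0236). The part of these NK and CD8 T markers in the level of Klrd1 was not tested. On arrays 1 and 5 it was 2.13 and 2.12 above it and on array 4 it was 1.34 above it. Without arrays 1, 4 and 5 the difference was 1.04 (SE 0.23).

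Klrc1, for the inhibitory partner NKG2A, exceeded the highest WT array on 4 of 5 arrays of LKB1-deficient cells. It was at 4.24, 4.26, 4.32, 5.44 and 4.35 on WT arrays 1 to 5 and at 5.88, 4.60, 6.02, 5.64 and 6.05 on LKB1-deficient arrays 1 to 5. A single array of each group broke the pattern: WT array 4 was high, and LKB1-deficient array 2, which also had the lowest Klrd1 of its group, was within the WT range. The means were 4.52 ± 0.52 (SD, n = 5) and 5.64 ± 0.60 (SD, n = 5), and the difference was 1.12 (SE 0.29). On LKB1-deficient array 3 it was at 6.02, close to the highest array of the group. On that array the NK, CD8 T, B cell and macrophage list means were not above the WT range. Even so, 4 of 14 NK, 4 of 9 CD8 T and 8 of 23 macrophage markers were above all WT arrays. Over all genes the share on array 3 was 20.73%. The part of these markers in the level of Klrc1 was not tested. The difference was 0.79 (SE 0.39) without LKB1-deficient arrays 1, 4 and 5.

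Klrc2, for the activating partner NKG2C, had a dim signal and did not follow Klrc1 array by array. It was at 2.99, 2.68, 2.81, 2.66 and 2.57 on WT arrays 1 to 5 and at 3.25, 3.63, 3.42, 2.52 and 3.11 on LKB1-deficient arrays 1 to 5. The highest 2 values were those of LKB1-deficient arrays 2 and 3, and LKB1-deficient array 4 was below all WT arrays. The means were 2.74 ± 0.16 (SD, n = 5) and 3.18 ± 0.42 (SD, n = 5), a difference of 0.44 (SE 0.18), which was 0.78 (SE 0.13) without LKB1-deficient arrays 1, 4 and 5. Klrc3 lay between 2.09 and 3.25 on WT and between 2.14 and 2.62 on LKB1-deficient arrays, a difference of -0.064 (SE 0.20) that did not pass in limma (adjusted p = 0.926). Its promoter window was nearly identical to the Klrc2 window picked for that likeness.

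Klrk1, for NKG2D, was raised on LKB1-deficient arrays 1, 4 and 5 and on no other array. It was at 3.28, 3.14, 3.32, 3.34 and 2.89 on WT arrays 1 to 5 and at 4.24, 3.0, 2.69, 4.36 and 5.08 on LKB1-deficient arrays 1 to 5. Array 2 lay within the WT range and array 3 below it. The means were 3.19 ± 0.19 (SD, n = 5) and 3.88 ± 1.0 (SD, n = 5), a difference of 0.68 (SE 0.37). Without arrays 1, 4 and 5 the sign turned, to -0.34 (SE 0.15). The 3 arrays were the ones with raised B cell, NK and macrophage marker means. On arrays 4 and 5 the NK list rose most in Tyrobp, also in the macrophage list, and in Fcgr3. The part of those markers in the values of Klrk1 was not tested.

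Klrb1c, for NK1.1, was flat apart from a single array. It was at 4.16, 3.99, 4.21, 4.16 and 4.30 on WT arrays 1 to 5 and at 4.86, 4.20, 4.10, 4.12 and 3.99 on LKB1-deficient arrays 1 to 5. LKB1-deficient array 1 was above all WT arrays, and the other 4 lay within the WT range. The difference was 0.088 (SE 0.15), from means of 4.16 ± 0.11 (SD, n = 5) and 4.25 ± 0.35 (SD, n = 5), and it was -0.064 without LKB1-deficient array 1. A second probe set that names both Klrb1a and Klrb1c was at 2.29 to 2.83 on WT and 2.28 to 3.05 on LKB1-deficient arrays.

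Klrg1 went the other way and was, among the 6 genes, the one with a lower mean in LKB1-deficient cells. It was at 5.50, 5.40, 6.14, 6.0 and 5.74 on WT arrays 1 to 5 and at 5.35, 4.52, 4.36, 5.39 and 5.06 on LKB1-deficient arrays 1 to 5. The groups did not overlap, but LKB1-deficient array 4 and WT array 2 were almost level. The means were 5.75 ± 0.31 (SD, n = 5) and 4.94 ± 0.47 (SD, n = 5), a log2 difference of -0.82 (SE 0.22), so the WT level was 1.76-fold that of LKB1-deficient cells. Over all genes 3.71% were lower without overlap, from which nothing is read here. The lowest values were on arrays 2 and 3, at 1.23 and 1.40 below the WT mean, and without arrays 1, 4 and 5 the difference was -1.31 (SE 0.19). Since arrays 1, 4 and 5 held the highest Klrg1 values among LKB1-deficient samples, their removal could only enlarge the decrease.

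**Figure D2:**
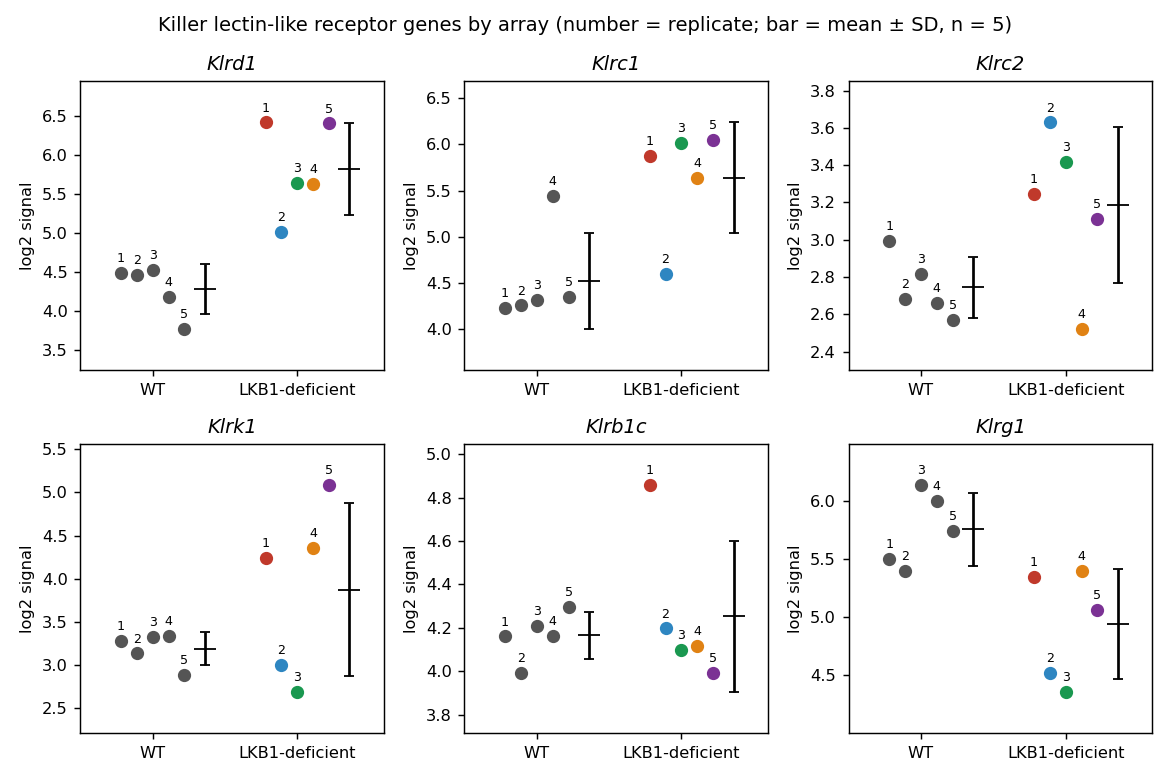
Log2 signal of the 6 killer lectin-like receptor genes on each WT and LKB1-deficient array, labelled by replicate number, with the group mean ± SD beside the points (n = 5). Klrd1 separates the groups upward and Klrg1 downward, Klrk1 is raised on LKB1-deficient arrays 1, 4 and 5, and Klrb1c on array 1.

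All members but Klrg1 lie in the NK gene complex, a stretch of chromosome 6 that also holds other C-type lectin genes, and the order of the genes was taken from the RefSeq table. From Klrb1a to Klra1 it lists 47 protein-coding or lectin-named genes, of which 35 had a probe set of their own. Klrd1, Klrk1, Klrc3, Klrc2, Klrc1 and Klri1 follow one another in this order. The raised signal did not run evenly along them: among the 35 genes, LKB1-deficient array 3 was highest above the WT mean at Klrc1 (1.5) and Klrd1 (1.35), with Klrk1 between them at -0.50. Klri1, for a lectin receptor of NK cells next to Klrc1, was 1.97, 0.85 and 2.12 above its WT mean on LKB1-deficient arrays 1, 4 and 5 and 0.038 and -0.089 from it on arrays 2 and 3, the pattern of Klrk1. Of the 35 genes, the groups did not overlap in 2, Klrd1 and Clec7a, both higher. Over all genes 0.996% were higher without overlap, and 4.71% had no overlap in either direction. Klrd1 was picked on this contrast, so nothing is read from this count. Clec7a encodes the beta-glucan receptor Dectin-1 of myeloid cells and was singled out after its values were seen. Among the 30 measured genes of the stretch that are not members, 15, 6, 4, 10 and 12 were above all WT arrays on LKB1-deficient arrays 1 to 5. Over all genes the shares were 27.14%, 20.98%, 20.73%, 21.96% and 20.39%. This stretch was chosen with the values known and was not tested. Among the high ones are Clec12a, a myeloid lectin gene, at 3.24 and 3.55 above the WT mean on arrays 4 and 5, and Clec1b, at 2.23 and 2.37. The mean of 3 measured erythroid and platelet markers (of 10 listed) was 7.16 and 7.01 on these 2 arrays, against at most 5.83 in WT. The part of such cells in the level of Clec1b was not tested.

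**Figure D3:**
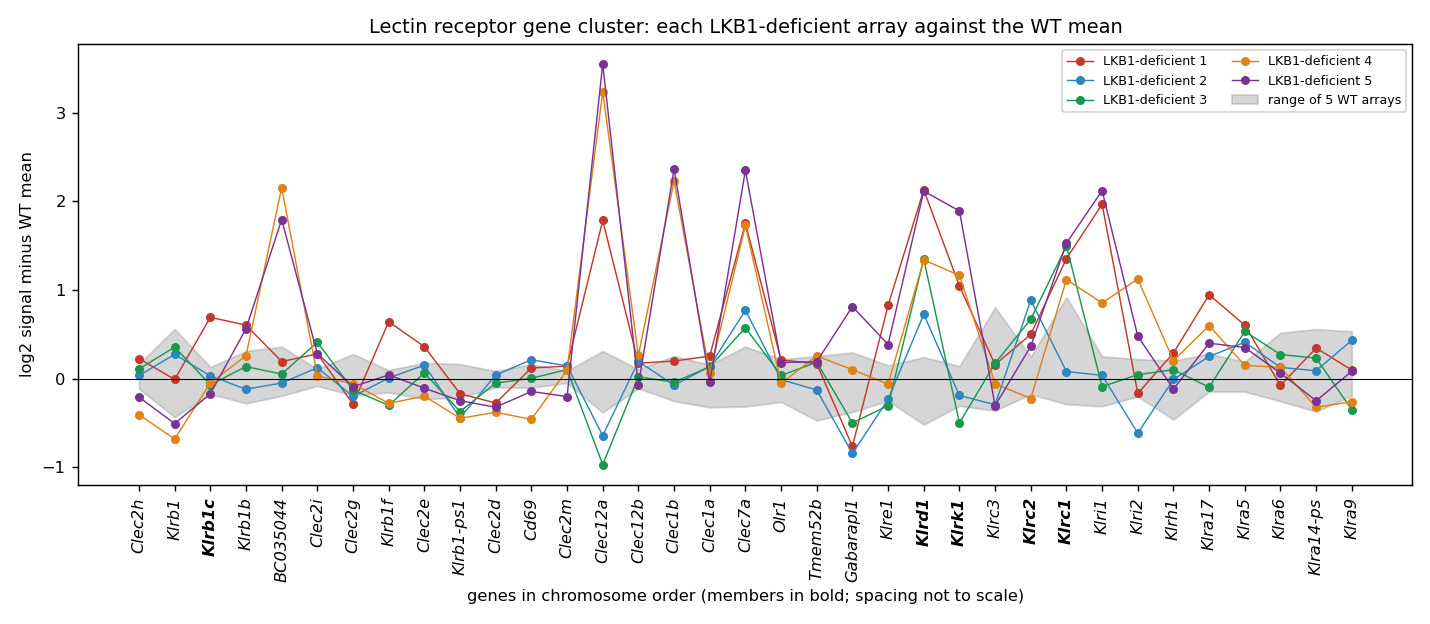
Log2 signal of each LKB1-deficient array minus the WT mean, for 35 genes of the NK gene complex in chromosome order, with the range of the 5 WT arrays in grey. Klrd1 is above the grey band on all 5 arrays, Klrk1 and Klri1 only on arrays 1, 4 and 5, and the peaks at Clec12a and Clec1b are highest on arrays 4 and 5.

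Other killer cell lectin-like genes were examined next, from a list of 34 of which 16 were measured by a probe set of their own. None was called in limma at an adjusted p under 0.05 (0 higher, 0 lower and 4 at an unadjusted p under 0.05), where 0.234% of all genes were called higher and 0.83% lower. Over all genes 3103 of 22180 had an unadjusted p under 0.05, against which this count and those of the lists that follow are to be read. Of the 16 estimates 13 were positive, with a median difference of 0.099 against 0.0034 over all genes, and 3 of the 16 lay outside the dimmest 40%. The smallest p was that of Klra5, a Ly49 receptor gene, at 0.41 (SE 0.11, limma adjusted p = 0.0946), between 2.59 and 3.04 on LKB1-deficient and between 2.29 and 2.63 on WT arrays. Klrb1-ps1, a pseudogene, was at -0.33 (adjusted p = 0.135 in limma), Klri1 at 0.98 (0.272) and Klra17 at 0.42 (0.274). Klre1, which lies next to Klrd1 and whose product joins inhibitory or activating pairs with the Klri proteins, was at 0.12 (limma adjusted p = 0.831). It was above all WT arrays on LKB1-deficient arrays 1 and 5. The Ly49 genes Klra1, Klra4 and Klra7 share a probe set with 4 others, which lay at 2.54 to 2.81 on WT and 2.65 to 2.74 on LKB1-deficient arrays.

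Adaptors and signalling proteins of these receptors gave 0 called genes of 18 measured in limma (of 20 listed), with 8 at an unadjusted p under 0.05 and a median difference of -0.049. Hcst, for the NKG2D adaptor DAP10, was at 11.34, 11.42, 11.29, 11.40 and 11.36 on WT arrays 1 to 5 and at 11.28, 10.83, 11.14, 10.96 and 10.96 on LKB1-deficient arrays 1 to 5. Its groups did not overlap, and the difference of -0.33 (SE 0.096) did not pass (limma adjusted p = 0.139), though it did when LKB1-deficient array 1 was left out, which had the highest Hcst of its group. Tyrobp, for DAP12, was at 8.41 to 8.98 on WT arrays, reached 10.19, 11.22 and 11.30 on LKB1-deficient arrays 1, 4 and 5, and was 8.65 and 8.79 on arrays 2 and 3. DAP12 is abundant in myeloid cells as well as NK cells, and the difference of 1.29 (SE 0.47) did not pass (limma adjusted p = 0.231). Zap70 and Lat2, which carry signals downstream of such receptors, had no overlap either, at -0.28 (limma adjusted p = 0.188) and 0.44 (0.0791). Of the 18 genes, 2 were thus lower and 1 higher without overlap, where the shares over all genes were 3.71% and 0.996%. Plcg2, a phospholipase with a role in B and NK cells, was at 0.70 (limma adjusted p = 0.167) with its highest values, 5.79 and 6.14, on LKB1-deficient arrays 4 and 5.

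Ligand genes for these receptors gave 0 called genes of 12 measured in limma (of 19 listed), 2 at an unadjusted p under 0.05, with a median difference of 0.060. H2-T23, for the CD94 and NKG2 ligand Qa-1, was tight on WT arrays, 8.53 to 8.56, and at 8.13, 8.71, 8.73, 8.86 and 8.61 on LKB1-deficient arrays 1 to 5. It was thus above all WT arrays on 4 arrays and below them on array 1, and its difference of 0.065 (SE 0.12) did not pass (limma adjusted p = 0.864). H60b, for an NKG2D ligand, was at 8.35 to 8.72 on WT and 8.65, 9.56, 8.86, 9.29 and 8.81 on LKB1-deficient arrays 1 to 5, a difference of 0.52 (SE 0.16, limma adjusted p = 0.166). Ulbp1, for the NKG2D ligand MULT1, was at -0.12 (limma adjusted p = 0.863). Clec2i, for a Clr protein bound by Nkrp1 receptors, was at 0.23 (limma adjusted p = 0.308), and Clec2d, for the Nkrp1b ligand Clr-b, at -0.20 (0.408). Of the cadherin genes, listed as ligands of KLRG1, Cdh4 was at 0.30 (limma adjusted p = 0.406) and Cdh1 at -0.057 (0.799).

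Of 30 measured genes of the killer cell programme (34 listed), 1 rose, 1 fell and 28 did not pass in limma, with 13 at an unadjusted p under 0.05 and a median difference of 0.14. Over all genes 0.234% were called higher and 0.83% lower. With the replicate number as a block, 0 of the 30 rose and 0 fell. Nkg7, a granule membrane protein of killer cells, fell: it was at 9.09, 9.01, 9.31, 9.19 and 8.96 on WT arrays 1 to 5 and at 8.62, 8.15, 7.74, 8.46 and 8.36 on LKB1-deficient arrays 1 to 5. Its groups did not overlap, and the difference was -0.84 (SE 0.15, limma adjusted p = 0.0236). The call of Nkg7 ended when any 1 of the 5 WT arrays was left out (adjusted p up to 0.0823) and held without any 1 of the LKB1-deficient arrays. Il12rb2, a chain of the interleukin 12 receptor, rose by 1.06 (SE 0.20, limma adjusted p = 0.0315), from 4.57 to 5.39 on WT arrays to 5.52, 6.51, 6.16, 6.21 and 6.55 on LKB1-deficient arrays 1 to 5. It stayed past the threshold only when LKB1-deficient array 1 was left out, and in none of the other 9 fits without 1 array (adjusted p up to 0.0828).

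Among these 30 genes the groups did not overlap in 2 that were lower, Nkg7 and Gzmc, and in 2 that were higher, where the shares over all genes were 3.71% and 0.996%. The higher ones were Il12rb2 and Itgam (0.81, limma adjusted p = 0.209), an integrin gene also expressed by myeloid cells that was named after its values were seen. Ncr1, for the NK receptor NKp46, was at 3.81 to 4.60 on WT and 4.0 to 4.85 on LKB1-deficient arrays (difference 0.11, limma adjusted p = 0.844). Eomes, a T-box factor of NK and memory CD8 T cells, was at 5.07 to 5.42 on WT arrays and at 7.02, 5.23, 5.76, 5.83 and 6.10 on LKB1-deficient arrays 1 to 5 (0.70, limma adjusted p = 0.225). Eomes was thus above all WT arrays on 4 arrays, like Klrc1, and within the WT range on array 2. Gzma, for granzyme A, was at 5.87 on LKB1-deficient array 1 against 3.68 to 4.36 on WT arrays, and did not pass (0.61, limma adjusted p = 0.396). Perforin, from Prf1, was at 0.56 (limma adjusted p = 0.152), Gzmb at 0.0051 (0.994), the chemokine gene Ccl5 at 0.18 (0.804) and Tbx21, for T-bet, at -0.21 (0.558). Gzmc, another granzyme, was at -0.89 (limma adjusted p = 0.0674) with no overlap between the groups, Samd3 at 0.81 (0.107), and Il2rb, the shared interleukin 2 and 15 receptor chain, at -0.18 (0.760).

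**Figure D4:**
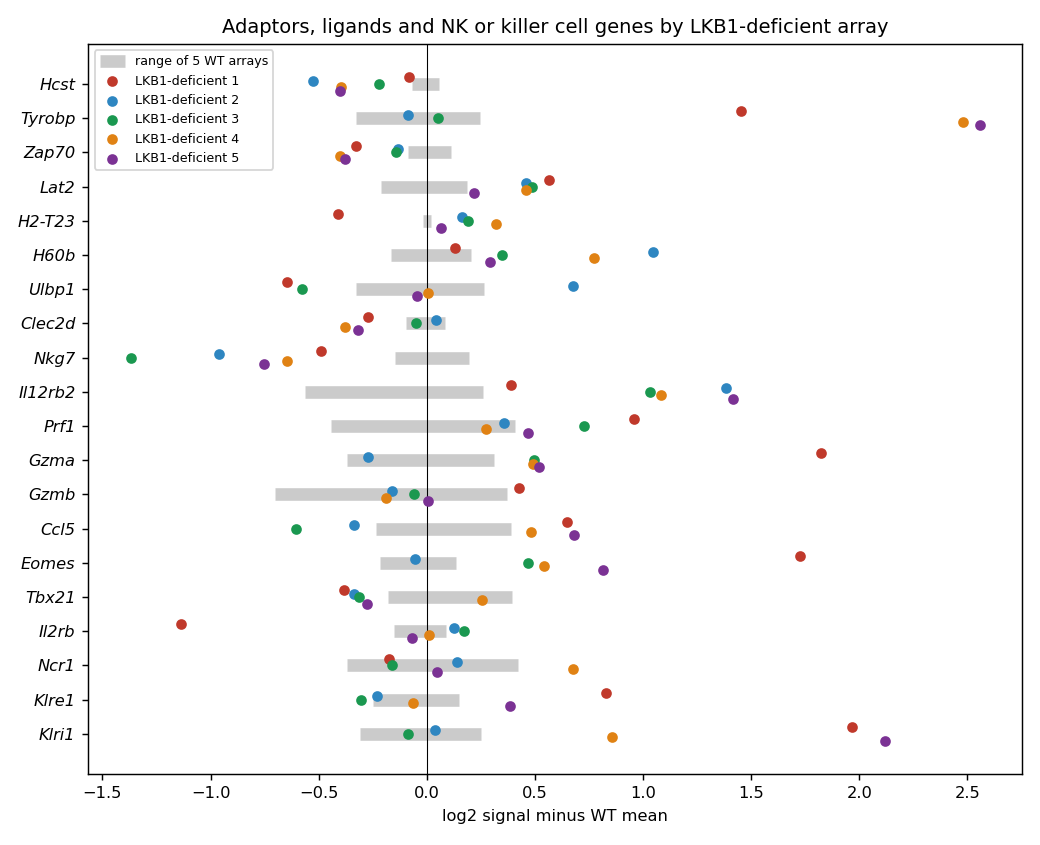
Log2 signal on each LKB1-deficient array minus the WT mean, for adaptors, ligands, killer cell genes and the neighbours Klre1 and Klri1, with grey bars for the range of the 5 WT arrays. All 5 LKB1-deficient arrays lie left of the WT range for Nkg7 and right of it for Il12rb2, whereas Tyrobp and Klri1 are raised on arrays 1, 4 and 5.

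Effector Treg genes often found with KLRG1 were examined beside Klrg1. Of 22 measured (24 listed), 5 fell, 0 rose and 17 did not pass in limma, with 12 at an unadjusted p under 0.05 in either direction and a median difference of -0.40. Over all genes 0.83% were called lower and 0.234% higher. The 5 were Batf (-0.87, adjusted p = 0.0074) and Irf4 (-0.74, 0.0442), transcription factors of effector Treg cells, Itgae (-1.29, 0.0088), the CD103 chain, Il10 (-1.21, 0.0335) and Ccr4 (-0.87, 0.0342). This list is no independent support for the direction of Klrg1, since earlier results of these data were known when it was written. Batf and Itgae stayed past the threshold in all 10 fits that left out 1 array, Ccr4 in 3, Il10 in 2 and Irf4 in 1. The count was 2 or 3 lower in 9 of these fits and 6 lower and 2 higher (Gata3 and Tnfrsf9) without LKB1-deficient array 1. Without LKB1-deficient arrays 1, 4 and 5, 10 of the list were lower and 2 higher, and Irf4 was not among them.

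The genes with the most similar course over the 10 arrays were looked up for each member by Pearson's r among all genes outside the 6 members. This is a description of arrays that share the 2 groups. Siglech, for a lectin of plasmacytoid dendritic cells, came first for Klrk1 (r = 0.984, n = 10 arrays), before D13Ertd608e (0.976) and Grk3 (0.972). Siglech was at 6.51, 6.33 and 7.08 on LKB1-deficient arrays 1, 4 and 5, at 5.47 to 5.79 in WT, and on arrays 2 and 3 at 5.48 and 5.26. It is 1 of the 23 monocyte, macrophage and dendritic markers above. Klrb1c was most like Mir1951 (0.989), Cyp2s1 (0.97) and Plekhs1 (0.964), which were likewise highest on LKB1-deficient array 1. For Klrg1 the first was Ahnak (0.962), a large scaffold protein gene, at 8.54 to 8.98 on WT arrays and at 8.10, 7.43, 7.19, 8.03 and 8.04 on LKB1-deficient arrays 1 to 5, then Med11 and Rnf43 (both 0.952). Klrd1 was followed by 4930563E18Rik (0.947), Gm4610 (0.932) and Smim3 (0.931), Klrc1 by Mir34c (0.94), Olfr916 (0.935) and Adgra3 (0.922), and Klrc2 by Gm19439 (0.935), Cldn34b1 (0.922) and 4930565D16Rik (0.918). The 6 members were left out of the search, so none of them could be found. No gene found is another killer lectin or stands in the NK marker list.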

How the data were processed

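Log2 signals of 41345 probe sets were deposited for 10 arrays, and no column came from outside the series. Per the submitters' processing notes, the authors used RMA (robust multi-array average) and Partek 6.6, with order and settings not given in the sources used here. Per the labels' protocols, total RNA was amplified with NuGEN kits, which can distort low levels. Quantile normalization, a step of RMA, hides shifts shared by all transcripts. Medians of arrays were 4.83 to 4.86 in WT and 4.88 to 4.94 in LKB1-deficient samples.

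Of the probe sets, 23521 named 1 gene symbol in the platform annotation, 1814 several and 16010 none. A gene with several probe sets (1082 genes) was given the one with the highest mean. Low signals were kept. LKB1-deficient minus WT was fitted for 22180 genes by lmFit and eBayes of limma 3.58.1 under R 4.3.3. A gene was called where its p, adjusted over all of them by Benjamini and Hochberg, fell under 0.05: 52 higher and 184 lower (1.06%), or 67 and 103 with a second quantile normalization, which raised the share of higher genes from 22% to 39.4%. All adjusted p-values in the text are limma's. Precision is limited by the number of arrays. The code was tested on simulated data.

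Members and lists were chosen with earlier results of these data known. Named are Stk11, the members, called genes of each list, up to 4 with the smallest p, a fixed set of partner genes where measured singly, the 3 genes most like each member and top markers. Alternatives were other scalings, filters, priors, weights, blocks and sets of arrays. The labels state no pairing, and the main fit used none. Whether WT and LKB1-deficient cells came from the same chimeric mice is not known here. Promoters were compared in Biopython 1.88.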

Additional observations from a re-analysis of the deposited data

Results flagged for a closer look

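Among 71 genes named by rule, 142 groups of 5 arrays were examined for an array far from the other 4, and 11 groups held one. Chance alone gives about 1 in 20, and the share here cannot be set against that, since the genes include those picked for following a member array by array.

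Klrc1 stood apart in both groups: WT array 4 was at 5.44 against 4.24 to 4.35 on the other WT arrays, and LKB1-deficient array 2 at 4.60 against 5.64 to 6.05. Tbx21 was high on WT array 4 as well, at 6.21 against 5.64 to 5.77, and on LKB1-deficient array 4, at 6.07 against 5.43 to 5.54. Samd3 was low on WT array 2, at 4.90 against 5.45 to 5.66.

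On LKB1-deficient array 1, Klrb1c was at 4.86 against 3.99 to 4.20 on the other 4 arrays, and the 3 genes picked for the highest correlation with Klrb1c were high there by that choice: Mir1951 at 7.81 (others 4.22 to 4.64), Cyp2s1 at 6.94 (5.36 to 5.65) and Plekhs1 at 4.06 (3.01 to 3.25). Foxp3, which defines Treg cells, was low on this array, at 9.86 against 11.10 to 11.50, and so was Il2rb, at 10.42 against 11.49 to 11.73.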

How the results depend on the processing

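Klrd1, Klrc1 and Klrc2 kept a positive difference and Klrg1 a negative one under every alternative run, with ranges of 1.04 to 2.04, 0.79 to 1.37, 0.20 to 0.78 and -1.31 to -0.64. Values that moved by more than the spread between replicates were, for arrays with submission codes 7 to 10 alone (replicates 4 and 5), Klrd1 at 2.04, Klrk1 at 1.61 and Klrb1c at -0.17, and, without LKB1-deficient arrays 1, 4 and 5, Klrd1 at 1.04, Klrc2 at 0.78, Klrk1 at -0.34, Klrg1 at -1.31 and Stk11 at -0.75 (adjusted p = 0.0178, against 0.0178 to 0.629 over its alternatives). The meaning of these codes is not given. The cause was not tested. With 1 array left out, Klrd1 ranged from 1.38 to 1.73, Klrc1 from 1.01 to 1.37, Klrc2 from 0.33 to 0.61, Klrk1 from 0.38 to 0.98, Klrb1c from -0.064 to 0.15, Klrg1 from -0.93 to -0.67 and Stk11 from -0.45 to -0.26. Klrb1c also turned negative with array weights (-0.012) and without arrays 1, 4 and 5 (-0.018).

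Counts of called genes, 52 higher and 184 lower, were 79 and 307 with a trended robust prior, 17 and 132 without moderation, 135 and 329 with array weights, 423 and 46 for codes 7 to 10, 154 and 203 without LKB1-deficient arrays 1, 4 and 5 and 5 and 20 at an adjusted p under 0.01. For codes 1 to 6 limma called 0 and 0, with 2247 genes at an unadjusted p under 0.05. Lower genes numbered 284 without the dimmest genes, 285 with array medians subtracted and 103 with a second quantile normalization. With 1 array left out the counts ran from 8 to 180 and from 30 to 340.

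Same-numbered arrays had deviations correlated at -0.079 to 0.102, and WT array 2 alone correlated best with its own number. Such correlations cannot exclude a pairing, which the labels do not state. With the replicate number as a block the counts were 14 higher and 36 lower over all genes, 0 and 0 for killer cell genes and 3 lower for KLRG1-associated genes.

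Other killer lectins had 1 called higher with the codes as a block (Klra5) and 1 for codes 7 to 10 (Klra2). Signalling genes had 3 higher for codes 7 to 10 (Fcer1g, Plcg2 and Tyrobp) and 1 lower, Hcst, with the trended prior; with 1 array left out they had 0 to 1 lower. Killer cell genes had 2 higher with array weights, for codes 7 to 10 and without LKB1-deficient arrays 1, 4 and 5, and 0 higher without moderation, for codes 1 to 6 and at 0.01. They had 2 lower with medians subtracted, the trended prior, array weights and for codes 7 to 10, and 0 lower with a second quantile normalization, without moderation, for codes 1 to 6 and at 0.01; each direction ran from 0 to 2 with 1 array left out. KLRG1-associated genes had 1 higher with array weights and for codes 7 to 10, 2 higher without LKB1-deficient arrays 1, 4 and 5, and 0 to 2 with 1 array left out; they had 2 lower without moderation and at 0.01, 0 for codes 1 to 6, 1 for codes 7 to 10, 10 without LKB1-deficient arrays 1, 4 and 5, and 2 to 6 with 1 array left out. Ligand genes had 0 called throughout. Klrc2, Klrk1 and Klrb1c have no value without the dimmest 40% of genes, and their low signal limits what can be said of them. The low WT signal of Klrd1 and Klrc1 sets a like limit, though both passed that filter.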
